A study of Malus domestica with 99 samples.

Results

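Granny Smith apples that had been treated with 1-MCP were compared with control apples of the same cultivar at 7, 14 and 21 days after harvest. These are 6 of the 33 groups of the study, with 18 of its 99 RNA sequencing libraries, 3 to a group. Every group was the cortex of Granny Smith fruit. Treated fruit had been kept with 1-MCP (1-methylcyclopropene) overnight in a closed container directly after harvest, and control fruit had not. The labels call the 3 libraries of a group biological replicates but give neither the number of fruit in each nor the storage temperature, and they do not say whether control fruit were enclosed overnight too. The study as a whole follows 3 cultivars, Granny Smith, Golden Delicious and Fuji, from harvest to 2 months later, and its title concerns the crosstalk of ethylene and auxin in ripening after harvest.

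Apple is a climacteric fruit, in which a burst of ethylene drives ripening. ACC synthase and ACC oxidase make the hormone. Membrane receptors of the ETR and ERS families repress the pathway until ethylene binds them, and the signal then passes through CTR1 and EIN2 to EIN3/EIL and ERF transcription factors. Downstream lie enzymes that loosen the cell wall, make aroma volatiles and convert starch and sugars. 1-MCP occupies the receptors and blocks the response, which is why it is used to keep apples firm in storage.

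The deposited table gives 1 value per transcript entry and group, the authors' group mean on the log2 scale, with -1 as the value of an entry at 0 in all 3 libraries. No spread between replicate fruit can be computed from it, and the depth of the libraries is unknown. The 3 days therefore served as the units. The difference between 1-MCP and control fruit was taken at each day, and a change was called when limma, over the 3 day differences, gave a Benjamini-Hochberg adjusted p under 0.05 over all entries tested, two-sided. Standard errors (SE) are likewise over n = 3 days. Such a p weighs an effect against its spread between days, which may share 1 lot of fruit, and not against the spread between fruit. Of the 55627 entries in the table, 32735 were kept, having a log2 value of at least 4 in 3 or more of the 11 Granny Smith columns. A gene name was found for 341 genes, of which 231 were kept. Levels are compared between groups for the same gene only, never between genes.

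In Granny Smith cortex 1-MCP went with a broad change of the transcriptome at these days. Of the 32735 entries, 15399 (47%) were called, 8185 higher (25%) and 7214 lower (22%) in treated fruit. At least 2-fold differences were found for 3214 of the higher and 2482 of the lower entries. The median difference over all entries was 0.019 on the log2 scale. The columns have nearly the same quantiles (medians of 4.57 to 4.60), so a median near 0 follows from the scaling, and each difference is relative to it. Of the 231 named genes, 69 were higher, 69 lower and 93 not called, and their median was -0.045. The called share was thus 29.9% in each direction among named genes. All 138 called genes had the same sign at each day. A call from the mean and spread of these same differences favours this, so it is no separate support. The counts of called genes in the lists that follow are to be read beside the 25% of all entries called higher and the 22% called lower. A gene that passed the filter through the columns of 1 group alone had to differ, so its p is no separate support. Called named genes that were low throughout 1 group are listed near the end of these Results.

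The difference was smaller at day 7 than later in the number of entries it reached. Without a test, 2384 entries were at least 2-fold higher and 2185 at least 2-fold lower at day 7, against 4195 and 3258 at day 14 and 4006 and 2974 at day 21. Entries at least 16-fold higher numbered 53 at day 7, 272 at day 14 and 314 at day 21. Those at least 16-fold lower numbered 244, 357 and 328 of the 32735 kept entries. At day 7 large falls thus outnumbered large rises, though both were a small part of all entries. Entries near the floor in 1 group are among them. A set of 1820 entries (5.56%) was at least 2-fold higher at each of the days, and 1568 (4.79%) were at least 2-fold lower at each.

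The number of calls depended on which day was left out. Without day 14 it was 5951, without day 21 it was 9885 and without day 7 it was 17736. The differences at days 7 and 21 were the least alike (Pearson correlation 0.828). The correlation was 0.886 for days 7 and 14 and 0.936 for days 14 and 21. Of the 138 called named genes, 62 were called under each of the other settings tried and 76 lost their call under at least 1, of which 74 did so without day 14, 49 without day 21 and 6 without day 7. Only 2 days remain in these fits. Without the filter on low values 28 called named genes lost their call, among them BZIP3, BZIP5, BZIP13, ERF1, GBSSIb, HSF1, LAR1, MADS6, MdTCP4A, MYB5, MYBR1, MYBR9, NAC2, NAC4, NAC5, PIP1, SCL9 and XET02. Without pairing by day 8 did, namely AP2D51, CAMTA1, COL9, LAR1, MADS2, NAC4, PIP1 and XET02. Where a named gene below lost its call with a day left out, its adjusted p without that day is given.

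**Figure D1:**
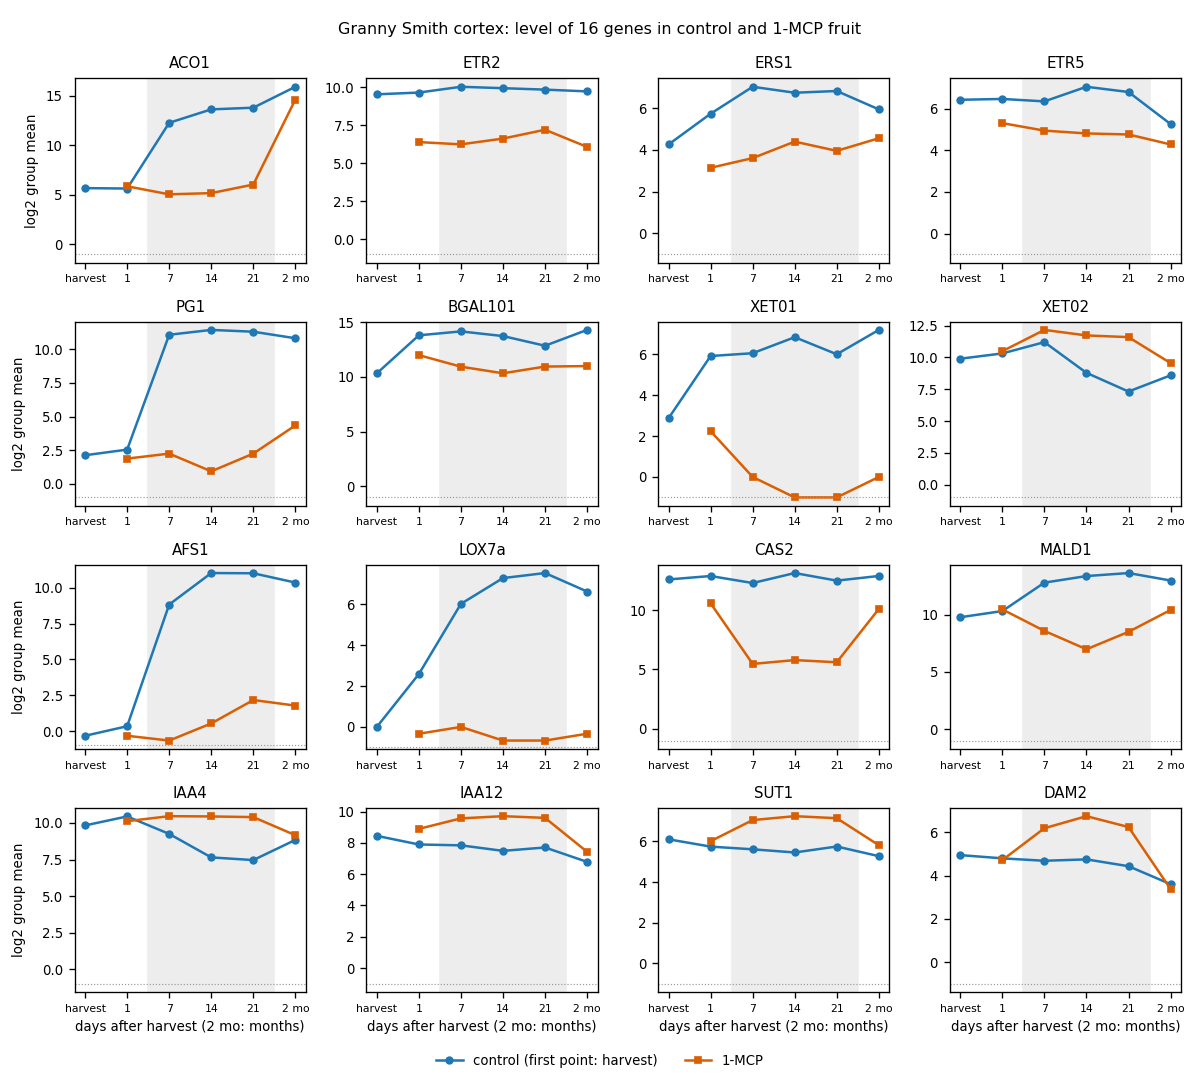
Level of 16 named genes in Granny Smith cortex (vertical axis, authors' log2 group mean) from harvest to 2 months (horizontal axis, time points evenly spaced and not to scale), in control fruit (blue circles) and 1-MCP fruit (orange squares). Each point is 1 group mean without error, the grey band marks days 7, 14 and 21, and the dotted line is the floor of -1; ACO1, for example, stood at 12.25, 13.61 and 13.77 in control fruit and at 5.04, 5.17 and 6.03 in treated fruit.

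Ethylene synthesis was represented by ACO1 (NM_001294118), an ACC oxidase, which catalyses the last step to ethylene. Its level in control fruit was 12.25 at day 7, 13.61 at day 14 and 13.77 at day 21, and in 1-MCP fruit it was 5.04, 5.17 and 6.03. Treated fruit stayed close to the harvest level of 5.67. ACO1 fell by 7.80 on the log2 scale (SE 0.356, adjusted p 0.000143), a 222-fold difference. By 2 months the levels were 15.88 in control and 14.59 in treated fruit. The ACC synthase entries MdACS-5A and MdACS-5B did not pass the filter on low values. MdACS-5A was at the floor in all 6 columns, and MdACS-5B lay between -1 and 1.20 across both groups.

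Of the 8 genes of ethylene perception and signalling, 3 fell, 1 rose and 4 were not called, with a median of -0.20 against 0.019 over all entries. The 3 that fell were receptor genes. ETR2 stood at 10.02, 9.93 and 9.84 in control fruit and at 6.23, 6.61 and 7.20 in 1-MCP fruit. Every treated value was below the harvest level of 9.53, while control fruit stayed near it. ETR2 fell by 3.25 (SE 0.333, adjusted p 0.000778), or 9.50-fold. ERS1 behaved otherwise with respect to harvest. Its control levels of 7.03, 6.74 and 6.83 lay above the harvest level of 4.26, and its treated levels of 3.61, 4.40 and 3.96 lay close to it, a fall of 2.88 against control (SE 0.310, adjusted p 0.000463). ETR5, at 6.36, 7.07 and 6.81 in control and 4.95, 4.82 and 4.77 in treated fruit, fell by 1.90 (SE 0.253, adjusted p 0.000904). Harvest fruit had an ETR5 level of 6.44, again on the side of the control.

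The remaining signalling genes differed little. ETR1 (0.05, adjusted p 0.724), its relative ETR1b (-0.23, adjusted p 0.196), the kinase gene CTR1, which acts as a brake on the pathway (-0.16, adjusted p 0.334), and the EIN3-like gene EIL3 (-0.11, adjusted p 0.328) were not called. EIN2, which passes the signal on from CTR1, rose by 0.39 (SE 0.028, adjusted p 0.0128). That call was lost without day 14 (adjusted p 0.133) and without day 21 (0.0702). Of the ERF factors, ERF1 stood at 10.52, 10.62 and 11.04 in control and 10.15, 10.06 and 9.83 in treated fruit and fell by 0.71 (SE 0.253, adjusted p 0.0194). Its call was lost without day 14 (0.0806), without day 21 (0.0521) and without the filter on low values. ERF2 did not pass the filter. Its control levels were 3.51, 4.23 and 4.26, and its treated levels of 1.39, 0.53 and 1.44 were lower at each day.

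Cell wall genes gave some of the steepest differences. Of 7 kept genes 5 fell, 1 rose and 1 was not called, and the median of the list was -2.27 beside 0.019 over all entries. PG1 and XET01 had every treated value at these days under the filter's log2 4. Neither their calls nor the count and median therefore support a direction. PG1 (NM_001293928), a polygalacturonase that cuts pectin and is tied to softening in apple, stood at 11.07, 11.43 and 11.30 in control fruit. In treated fruit it was at 2.25, 0.94 and 2.25, near the harvest level of 2.13. PG1 fell by 9.45 (SE 0.525, adjusted p 0.000357), and the difference was -6.97 when 16 was added to the values before taking logs. Its treated level was still only 4.34 at 2 months, when control fruit were at 10.81.

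XET01, a xyloglucan endotransglycosylase gene, had control levels of 6.05, 6.83 and 6.0. It was at 0.00 in treated fruit at day 7 and was listed at 0 at days 14 and 21, so no fold is given. XET01 was called lower (adjusted p 0.000321, and a difference of -2.51 with 16 added to the values), and at harvest it stood at 2.87. XET02 (NM_001294113), of the same enzyme family, went the other way. Its control level was 11.19 at day 7, 8.78 at day 14 and 7.32 at day 21, while its treated level stayed at 12.15, 11.72 and 11.59. XET02 rose by 2.72 (SE 0.962, adjusted p 0.0449), a call lost without day 14 (0.280), without day 21 (0.142), without the filter, with the filter at log2 2 and without pairing by day.

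BGAL101, a beta-galactosidase that removes galactose from wall polymers, stood at 14.16, 13.74 and 12.85 in control and at 10.94, 10.34 and 10.95 in treated fruit. It fell by 2.84 (SE 0.473, adjusted p 0.00383). AFase1, an arabinofuranosidase gene, fell by 0.74 (adjusted p 0.00174). MAN3, of the mannanase family, fell by 0.66 (adjusted p 0.009, and 0.0626 without day 14). The expansin gene EXP1, whose product loosens walls without cutting them, was not called. Its difference was -0.14 at day 7 and widened to -3.01 at day 14 and -3.66 at day 21 (adjusted p 0.0911), and the groups were close at day 7, with 5.61 in control and 5.48 in treated fruit. It was called without day 7 (8.99e-06).

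The aroma and lipid genes held the steepest named fall. AFS1 (NM_001293893), the synthase of alpha-farnesene, a volatile of apple skin and cortex linked to storage scald, stood at 8.83, 11.03 and 11.02 in control fruit. Its levels in treated fruit were -0.67, 0.53 and 2.16, of which the first lay just below the harvest level of -0.33 and the last furthest above it. AFS1 fell by 9.62 (SE 0.480, adjusted p 0.000112), and the difference was -6.14 with 16 added to the values. AFS1 reached the filter's log2 4 in control columns alone, so it had to differ and the p is no separate support. FPPS, whose enzyme makes the farnesyl precursor, moved oppositely. It stood at 3.57, 3.16 and 2.89 in control and at 4.67, 5.16 and 5.39 in treated fruit, and rose by 1.87 (SE 0.409, adjusted p 0.00474), with a difference of 0.98 when 16 was added to the values. OSC1, an oxidosqualene cyclase gene, was not called (0.20, adjusted p 0.249).

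Lipoxygenases start the breakdown of fatty acids to aroma aldehydes and esters. Of 10 named genes 3 were kept. LOX7a was at 6.01, 7.27 and 7.52 in control and at 0.00, -0.67 and -0.67 in treated fruit, with 0.00 at harvest. It fell by 7.38 (SE 0.687, adjusted p 0.000316), and the difference was -3.06 with 16 added to the values. Every treated LOX7a value at these days was under the filter's log2 4, so this call is no separate support either. LOX5a fell from 14.28, 14.20 and 14.17 to 12.36, 12.65 and 13.01, a difference of -1.54 (SE 0.218, adjusted p 0.00109). LOX8b was not called (-0.13, adjusted p 0.256). The other 7 did not pass the filter, LOX7c among them, which was at 2.67, 2.57 and 2.32 in control and at 4.43, 3.94 and 3.62 in treated fruit. In the carotenoid pathway both named genes fell. PSY2, a phytoene synthase, which makes the first carotenoid, stood at 9.65, 10.01 and 9.67 in control and 6.87, 7.30 and 7.59 in treated fruit (-2.52, SE 0.224, adjusted p 0.000296). ZDS1-1, a zeta-carotene desaturase gene, fell by 0.83 (adjusted p 0.00202).

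Aux/IAA proteins repress auxin response factors (ARFs) until auxin triggers their breakdown, and many Aux/IAA genes are themselves induced by auxin. Of 9 named Aux/IAA genes 5 were kept, of which 4 rose and 1 was not called, with a median of 1.44 beside 0.019 over all entries. IAA12 (NM_001294008) stood at 7.84, 7.49 and 7.71 in control and at 9.57, 9.71 and 9.60 in treated fruit. Its values moved little within either group, and it rose by 1.94 (SE 0.144, adjusted p 0.000224). IAA2 rose by 0.99 (SE 0.074, adjusted p 0.000903), from 7.59, 7.36 and 7.69 to 8.53, 8.49 and 8.57.

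IAA4 (NM_001300877) lay below its harvest level in control fruit alone. It was at 9.25, 7.64 and 7.46 there and at 10.47, 10.45 and 10.40 in treated fruit, with 9.83 at harvest. IAA4 rose by 2.32 (SE 0.554, adjusted p 0.0157), a call lost without day 14 (0.107) and without day 21 (0.0804). IAA11, at 2.41, 3.07 and 2.08 in control and 4.18, 4.09 and 3.60 in treated fruit, rose by 1.44 (SE 0.222, adjusted p 0.0154), and it too lost its call without day 14 (0.0748) and without day 21 (0.0587). With 16 added to the values its difference was 0.53. AUX/IAA7.1 was not called (0.62, adjusted p 0.242).

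Among 3 ARF genes ARF2 and ARF3 rose and ARF1 was not called (0.12, adjusted p 0.599). ARF2 was at 5.38, 4.10 and 4.52 in control and at 6.92, 6.90 and 6.71 in treated fruit, a rise of 2.18 (SE 0.365, adjusted p 0.0018). ARF3 rose by 0.80 (SE 0.101, adjusted p 0.00249). Auxin moves between cells through carriers. PIN7, an efflux carrier gene, stood at 6.41, 7.46 and 7.73 in control and at 5.22, 5.51 and 4.87 in treated fruit, a fall of 2.00 (SE 0.482, adjusted p 0.00838). LAX2, of the influx carrier family, fell by 1.03 (SE 0.262, adjusted p 0.00888). Both calls were lost without day 14 (0.0707 and 0.0751). The auxin-binding protein gene ABP was not called (-0.15, adjusted p 0.473). PIN10 did not pass the filter, with 2.30, 1.39 and -0.33 in control and 4.30, 3.71 and 3.49 in treated fruit.

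In apple much of the carbon arrives as sorbitol, which sorbitol dehydrogenase turns into fructose. The list of sugar and sorbitol genes held 10 kept members, of which 2 were called higher and 5 lower, with a median of -0.94. SUT1 (NM_001293880), a sucrose transporter gene, was at 5.61, 5.46 and 5.75 in control and at 7.05, 7.24 and 7.14 in treated fruit. Both groups held steady over the days, and SUT1 rose by 1.54 (SE 0.124, adjusted p 0.000568). The sorbitol transporter gene MdSOT3 (NM_001293973) dropped in control fruit, at 6.31, 4.66 and 3.57, and stayed at 7.77, 7.73 and 7.69 in treated fruit. It rose by 2.88 (SE 0.771, adjusted p 0.0225), a call lost without day 14 (0.175) and without day 21 (0.0516).

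Other members of the sugar list fell. SDH1, a sorbitol dehydrogenase, stood at 11.39, 11.44 and 11.24 in control and at 10.08, 10.24 and 10.32 in treated fruit (-1.14, SE 0.116, adjusted p 0.000856). The sorbitol transporter genes SOT2 (-1.30, SE 0.313, adjusted p 0.00509) and MdSOT4 (-0.96, SE 0.144, adjusted p 0.00188) fell as well, opposite to MdSOT3. NI, a neutral invertase, fell by 1.07 (SE 0.086, adjusted p 0.00201). FK, a fructokinase, fell by 0.92 (SE 0.268, adjusted p 0.00985), a call lost without day 14 (0.0829) and without day 21 (0.0528). SPS, which makes the phosphate form of sucrose, hexokinase and S6PDH, the sorbitol-6-phosphate dehydrogenase, were not called (adjusted p 0.669, 0.602 and 0.271).

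The 3 starch genes and the 3 kept genes of the GABA shunt were called higher, beside 25% of all entries, with medians of 0.43 and 1.39. GBSSIa and GBSSIb encode granule-bound starch synthases and AMY10 an amylase. GBSSIb rose by 1.08 (SE 0.352, adjusted p 0.016), AMY10 by 0.43 (adjusted p 0.0202) and GBSSIa by 0.41 (adjusted p 0.0152). Their calls were lost without day 14 (0.0910, 0.224 and 0.178) and without day 21 (0.0920, 0.103 and 0.0716). GABA-T2, a GABA transaminase gene, stood at 7.63, 7.22 and 7.39 in control and at 8.84, 8.76 and 8.81 in treated fruit, a rise of 1.39 (SE 0.100, adjusted p 0.000419). The glutamate decarboxylase genes, which make GABA, rose by 0.58 for GAD1 (adjusted p 0.0101, lost without day 14 at 0.131 and without day 21 at 0.0623) and by 2.26 for GAD2 (adjusted p 0.00787, lost without day 14 at 0.0625). GAD2 was at 2.95, 1.90 and 0.72 in control and at 4.32, 4.33 and 3.72 in treated fruit, below its harvest level of 6.67 in both, and its difference was 0.73 with 16 added to the values.

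Of 8 flavonoid genes 4 were kept, and 3 of these rose. LAR1, a leucoanthocyanidin reductase gene of the tannin branch, was at 7.09, 6.70 and 5.51 in control and at 7.75, 7.45 and 7.27 in treated fruit (1.06, SE 0.354, adjusted p 0.0178, lost without day 14 at 0.0623). DFR, the dihydroflavonol reductase, stood at 2.39, -0.33 and 1.83 in control and at 4.23, 5.07 and 4.72 in treated fruit, the latter near the harvest level of 4.66. It was called higher (3.38, SE 1.06, adjusted p 0.0131), with a difference of 1.13 when 16 was added to the values, and its call was lost without day 21 (0.0517). MdF3H, a flavanone hydroxylase gene, rose by 0.72 (adjusted p 0.0249, and 0.43 with 16 added to the values), a call lost without day 7 (0.0603), day 14 (0.0981) or day 21 (0.0749). ANR2a was not called (-0.82, adjusted p 0.0997). F3H did not pass the filter and went opposite to MdF3H, with 1.20, 1.44 and 2.48 in control and 0.44, -0.33 and 0.86 in treated fruit.

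**Figure D2:**
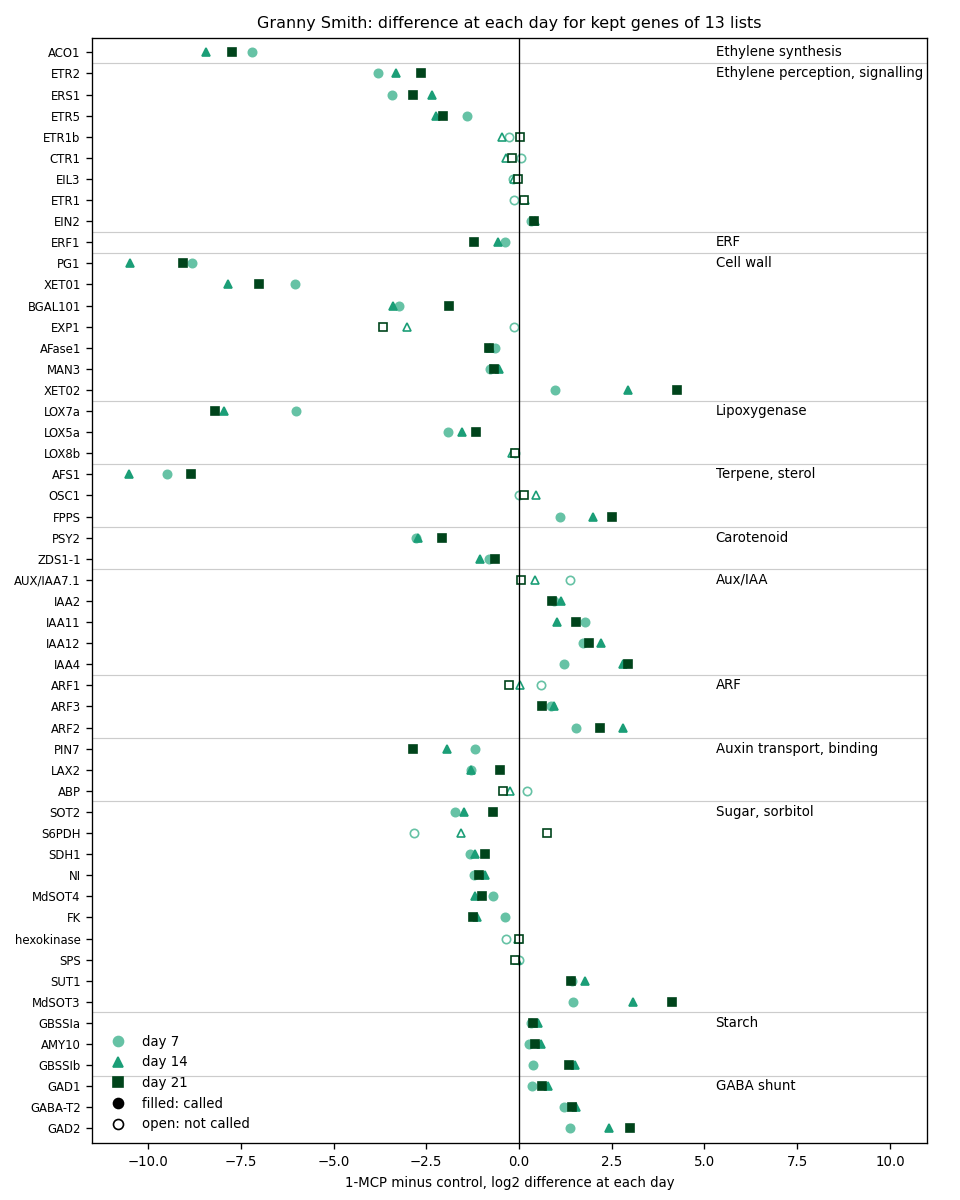
Difference between 1-MCP and control fruit (horizontal axis, log2 units) at day 7 (circles), day 14 (triangles) and day 21 (squares) for each kept gene of 13 lists (rows), filled where the gene was called over the 3 days and open where it was not. The receptor genes ETR2, ERS1 and ETR5 lie to the left at each day and the Aux/IAA genes IAA2, IAA4, IAA11 and IAA12 to the right.

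Transcription factors made up many of the named genes. In the NAC family, which holds ripening regulators, 3 of 11 kept genes rose, 4 fell and 4 were not called (median -0.045). NAC1 stood at 10.25, 9.41 and 8.56 in control and at 7.66, 7.70 and 7.63 in treated fruit and fell by 1.75 (SE 0.482, adjusted p 0.018, lost without day 14 at 0.122). NAC3 fell by 0.81 (SE 0.062, adjusted p 0.00137). NAC2 (-0.39, adjusted p 0.0376) and NAC4 (-0.39, adjusted p 0.0408) fell slightly, and both calls were lost without day 14 (0.252 and 0.277) and day 21 (0.171 and 0.140). NAC10 was at 8.40, 7.43 and 6.75 in control and at 9.55, 9.34 and 9.37 in treated fruit, with 9.52 at harvest, and rose by 1.90 (SE 0.426, adjusted p 0.00872, lost without day 14 at 0.077). NAC15 (0.43, adjusted p 0.0103) and NAC5 (0.40, adjusted p 0.0263) rose, with calls lost without day 14 (0.110 and 0.221) and day 21 (0.0582 and 0.138).

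Of 9 kept MADS-box genes, a family of floral and fruit identity factors, 4 rose and 5 were not called (median 0.38). DAM2, of a group named in peach for its part in bud dormancy, stood at 4.69, 4.75 and 4.44 in control and at 6.19, 6.75 and 6.25 in treated fruit and rose by 1.77 (SE 0.143, adjusted p 0.000639). AP1 rose by 1.13 (SE 0.212, adjusted p 0.00435). MADS2 rose by 0.60 (adjusted p 0.00892, lost without day 14 at 0.0689) and MADS6 by 0.38 (adjusted p 0.0473, lost without day 14 at 0.253 and without day 21 at 0.224).

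Of 17 kept MYB and MYB-related genes 4 rose, 4 fell and 9 were not called (median 0.11), a called share like the 47% over all entries. MYB7 (NM_001294052) stood at 7.33, 6.58 and 5.99 in control and at 1.86, 2.16 and 2.46 in treated fruit, with 5.01 at harvest, so the groups lay on either side of the starting level. It fell by 4.47 (SE 0.561, adjusted p 0.000834), and the difference was -2.50 with 16 added to the values. MYB30 fell from 7.34, 7.12 and 7.02 to 4.96, 4.92 and 5.60 (-2.0, SE 0.293, adjusted p 0.00111). MYBR20 fell by 0.87 (adjusted p 0.00193) and MYBR9 by 1.04 (adjusted p 0.0224, lost without day 14 at 0.133 and without day 21 at 0.0928). MYBR7 rose by 1.65 (SE 0.233, adjusted p 0.00161), MYBR18 by 1.16 (adjusted p 0.00225), MYB5 by 0.67 (adjusted p 0.0118) and MYBR1 by 0.42 (adjusted p 0.0372), the latter pair losing their calls without day 14 (0.064 and 0.283) and MYBR1 also without day 21 (0.0989).

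Homeobox, CONSTANS-like and GRAS genes gave 6 rises and 3 falls among 14 kept (median 0.37). SCL5, a GRAS gene, was at 8.61, 9.26 and 9.14 in control and at 5.75, 5.98 and 6.32 in treated fruit, near the harvest level of 5.59. SCL5 fell by 2.99 (SE 0.147, adjusted p 7.16e-05). HD1 fell by 1.22 (adjusted p 0.00116) and COL9 by 0.81 (adjusted p 0.00973). The CONSTANS-like gene Col1 stood at 6.08, 4.82 and 4.50 in control and at 7.88, 7.61 and 7.62 in treated fruit and rose by 2.57 (SE 0.395, adjusted p 0.00186). Among the homeobox genes HD14 rose by 1.83 (SE 0.297, adjusted p 0.00191), HD21 by 1.46 (SE 0.104, adjusted p 0.000346), HD19 by 1.04 (adjusted p 0.03, and 0.42 with 16 added to the values) and HD16 by 0.43 (adjusted p 0.0178). SCL9 rose by 0.73 (adjusted p 0.025), and the calls of HD16, HD19 and SCL9 were lost without day 14 (0.120 to 0.183) and without day 21 (0.0871 to 0.105).

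Of 8 kept bZIP genes 5 fell and 2 rose (median -0.49). BZIP12 fell by 1.44 (SE 0.158, adjusted p 0.000583), while BZIP13, BZIP3, BZIP15 and BZIP5 had differences from -0.70 to -0.40 and lost their calls without day 14 (0.0818 to 0.188) and, apart from BZIP15, without day 21 (0.0569 to 0.201). BZIP1 rose by 1.39 (SE 0.333, adjusted p 0.00571) and BZIP19 by 0.40 (adjusted p 0.0122, lost without day 14 at 0.124 and without day 21 at 0.0514). Of 7 kept WRKY genes, known from defence and senescence, WRKY6 rose by 1.03 (SE 0.188, adjusted p 0.00892), or 0.60 with 16 added to the values. WRKY10 (0.54, adjusted p 0.015) and WRKY1 (0.31, adjusted p 0.0293) rose and WRKY16 (-0.52, adjusted p 0.0275) and WRKY7 (-0.42, adjusted p 0.0257) fell, and these 4 lost their calls without day 14 (0.0997 to 0.205) and without day 21 (0.0609 to 0.142). Among 7 AP2-domain genes AP2D11 fell by 1.20 (SE 0.183, adjusted p 0.00129), AP2D51 fell by 0.63 (adjusted p 0.00471) and AHAP2 rose by 0.42 (adjusted p 0.0181). AP2D51 lost its call without day 14 (0.0547) and without pairing by day (0.0851), and AHAP2 without day 14 (0.184) and without day 21 (0.0540). Of 4 bHLH genes BHLH21 rose by 0.60 (adjusted p 0.00603) and BHLH3 by 0.56 (adjusted p 0.0194, lost without day 14 at 0.142 and without day 21 at 0.0719). Of 3 heat shock factors HSF3 fell by 0.83 (adjusted p 0.00636) and HSF1 by 0.55 (adjusted p 0.0301). The call of HSF3 was lost without day 14 (0.0635) and that of HSF1 without day 7 (0.0696), day 14 (0.0970) or day 21 (0.0693).

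The remaining lists were short. Of 4 CIPK kinases, which act with calcium sensors, CIPK27 fell by 1.47 (SE 0.336, adjusted p 0.00484). The cytokinin receptor gene CHK3b rose by 0.77 (adjusted p 0.0026). The spermidine synthase gene MdSPDS1 rose by 0.48 (adjusted p 0.0137, lost without day 14 at 0.137), and neither of 2 gibberellin receptor genes, GID1b and GID1c, was called (adjusted p 0.762 and 0.260). CYCD3, a D-type cyclin gene, was at 3.46, 0.86 and 1.88 in control and at 6.73, 5.99 and 5.70 in treated fruit and rose by 4.07 (SE 0.553, adjusted p 0.000901). With 16 added to the values the difference was 2.04. MALD1 (NM_001294363), which encodes the birch-pollen-related allergen Mal d 1, stood at 12.80, 13.37 and 13.63 in control and at 8.58, 6.98 and 8.50 in treated fruit. Its harvest level of 9.77 lay between the groups, and it fell by 5.25 (SE 0.631, adjusted p 0.00347). VSP, in the same list, fell by 0.51 (adjusted p 0.00581, lost without day 14 at 0.0707).

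Genes outside the lists included CAS2 (NM_001293822), whose symbol is used for more than 1 enzyme. It was at 12.28, 13.12 and 12.48 in control fruit, like harvest fruit at 12.58, and at 5.46, 5.78 and 5.60 in treated fruit. CAS2 fell by 7.01 (SE 0.164, adjusted p 5.08e-06), and its treated level was 10.10 at 2 months. A dehydrin gene, of a family of protective proteins of drought and cold, fell by 2.59 (SE 0.480, adjusted p 0.00569). ALF6 rose by 2.43 (SE 0.318, adjusted p 0.00109), with 3.71, 3.33 and 2.83 in control and 5.56, 5.81 and 5.78 in treated fruit, and the difference was 1.4 with 16 added to the values. RA, at 1.20, -0.33 and 0.97 in control and 3.74, 4.72 and 4.43 in treated fruit, was called higher (3.68, SE 0.732, adjusted p 0.00415), with a difference of 1.03 when 16 was added to the values. Treated RA values lay around the harvest level of 4.01. Of the entries without a gene name, AF312737 was called lower. It stood at 8.37, 9.996 and 9.94 in control fruit, was listed at 0 in treated fruit at day 7 and was at -0.67 and 0.20 there at days 14 and 21. XM_008373586 (LOC103435187) was called higher, at 6.75, 7.40 and 7.06 in treated fruit. In control fruit it was at 2.46 at day 7 and listed at 0 at days 14 and 21, so no fold is given for either entry.

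A pair of checks bear on these values. The translation factor gene eF-1alpha, of a kind often used as a reference, was itself higher in treated fruit, at 11.79, 11.60 and 11.75 against 10.92, 10.33 and 10.59 (1.10, SE 0.119, adjusted p 0.00104). Phloem genes, the markers available here for vascular tissue within the cortex, were lower. Both kept members fell, pp2-1 from 6.68, 6.70 and 6.75 to 5.08, 5.11 and 5.62 (-1.44, SE 0.154, adjusted p 0.000997) and pp2-3 by 1.05 (SE 0.107, adjusted p 0.00185). The third marker, SEOb, was at the floor in all control columns and between -0.33 and 0.67 in treated fruit. The log2 of the summed level of the 3 genes was 7.53 to 7.78 in control and 6.28 to 6.59 in treated fruit, and its part in the other differences was not tested. In bulk cortex, fewer cells of a type and less RNA per cell cannot be told apart. None of the gene names matched the photosynthesis, peel or seed lists.

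The harvest column, which did not enter the fit but counted in the filter, shows on which side the groups parted. A move is here a difference from harvest of at least 1 log2 unit in the mean of the 3 days, with no test. Over all entries called higher, neither group had moved for 57.5%, control fruit alone for 25.6%, treated fruit alone for 7.6% and both for 9.2%. Over those called lower the shares were 56.7%, 26.9%, 6.6% and 9.9%. Harvest was nearer to the treated than to the control mean for 66.4% of the higher and 70.9% of the lower entries. Among entries with larger differences more had moved. Control fruit alone had moved for 48.7% of the 3214 entries at least 2-fold higher with 1-MCP, treated fruit alone for 13%, both for 18.5% and neither for 19.8%. For the 2482 entries at least 2-fold lower, the shares were 47.3%, 13.9%, 21.2% and 17.5%. Harvest was nearer to the treated mean for 76.6% and 73.1% of these. The harvest column is shared by both sides of this description. The same shares were not computed over all kept entries, so none of them is read as particular to the called entries.

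Among the 69 named genes called lower, neither group had moved for 30. Control fruit alone had moved for 21 (30.4%, beside 26.9% of all entries called lower), with ACO1, PG1, BGAL101, ERS1, LOX7a, NAC1, SCL5 and SDH1 in this group. Treated fruit alone had moved for 10 (14.5%, beside 6.6%), namely CAS2, CIPK27, ETR2, ETR5, LAX2, MYB30, NI, PIN7, PSY2 and dehydrin. The receptor genes thus fell into both groups, since ERS1 had risen in control fruit while ETR2 and ETR5 had dropped in treated fruit. Of the 69 called higher, neither had moved for 36. Control fruit alone had moved for 16 (23.2%, beside 25.6% of all entries called higher), among them IAA4, IAA11, ARF2, NAC10, DFR and LAR1. Treated fruit alone had moved for 7 (10.1%, beside 7.6%), namely ALF6, DAM2, IAA12, IAA2, SUT1, XET02 and YTP2. The Aux/IAA genes were likewise split, IAA4 and IAA11 having dropped in control fruit and IAA2 and IAA12 having gone above harvest in treated fruit. MALD1, MYB7 and XET01 had moved in both groups, rising in control and dropping in treated fruit. No test was made of these classes.

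A change in the size of the difference over the days was called for few entries. A linear trend over days 7, 14 and 21, tested with limma on the same differences, was called for 385 of 32735 entries (1.18%), of which 280 went up (0.855%) and 105 down (0.321%) per week. By the same test 4888 entries had an unadjusted p under 0.05, so few calls do not show that the differences were steady. With 16 added to the values the split was 260 and 160. Of the 231 named genes 10 had a trend. None of these trends was called without the filter on low values (adjusted p 0.559) or with plain eBayes settings (0.226 to 0.257), and the fit leaves 1 residual degree of freedom.

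**Figure D3:**
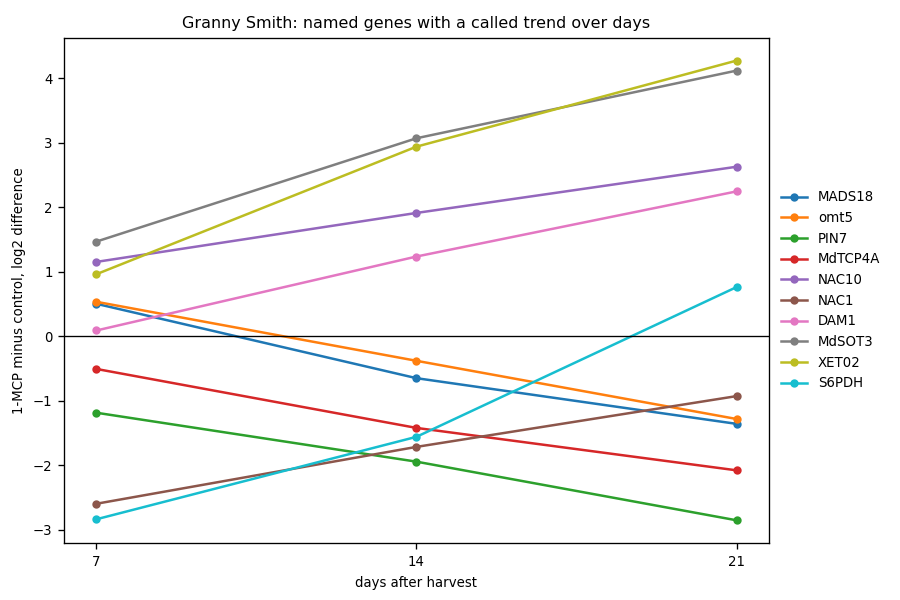
Difference between 1-MCP and control fruit (vertical axis, log2 units) at day 7, 14 and 21 after harvest (horizontal axis) for the 10 named genes with a called trend. The line of S6PDH crosses 0, from -2.84 at day 7 to 0.76 at day 21, while that of NAC1 approaches 0 from -2.60 to -0.93.

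S6PDH (NM_001294028), which makes sorbitol phosphate in leaves, had the steepest trend, 1.80 per week (SE 0.301, adjusted p 0.00784). Its control level was 13.22 at day 7, 11.92 at day 14 and 9.51 at day 21, while its treated level stayed at 10.38, 10.36 and 10.28. Treated fruit were thus lower at day 7 and higher at day 21, and all of the movement was in control fruit. XET02 (1.66 per week, SE 0.186, adjusted p 0.004) and MdSOT3 (1.33 per week, SE 0.160, adjusted p 0.0123) grew in the same manner, with flat treated and dropping control levels. DAM1 rose away from 0, with differences of 0.09, 1.23 and 2.24 (1.08 per week, SE 0.040, adjusted p 0.0137), and NAC10 grew by 0.74 per week (adjusted p 0.0218). NAC1 had a shrinking fall (0.83 per week, adjusted p 0.0153).

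In the other direction, PIN7 had a fall that deepened with a trend of -0.83 per week (adjusted p 0.0409), with control levels going up from 6.41 to 7.73. MdTCP4A, a TCP factor gene, had differences of -0.51, -1.42 and -2.08 (adjusted p 0.0338). MADS18 (0.50, -0.65 and -1.36, adjusted p 0.0222) and omt5 (0.53, -0.38 and -1.28, adjusted p 0.0106) changed sign after day 7. Neither was called over the 3 days (adjusted p 0.338 and 0.462).

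The effect of 1-MCP was set beside that in Golden Delicious and Fuji fruit treated in the same way. Taking the difference of the effects day by day, limma called 1419 of 30836 entries kept in both cultivars (4.6%), with the Granny Smith effect higher for 596 (1.93%) and lower for 823 (2.67%). Of 226 named genes tested, 18 differed. Against Fuji, 1205 of 15295 entries differed (7.88%), with the Granny Smith effect higher for 565 (3.69%) and lower for 640 (4.18%), and 18 of 115 named genes did. The Fuji table covers 27230 entries, and its control mean at day 14 rests on 2 libraries by the form of its low values. Both comparisons use the same Granny Smith values. Both counts depended on which day was left out. Without day 14, 1 and 257 entries were called, and all 18 and 17 of the 18 named genes lost their calls (adjusted p up to 0.405 and 0.284). Without day 7 the counts rose to 5899 and 2349.

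**Figure D4:**
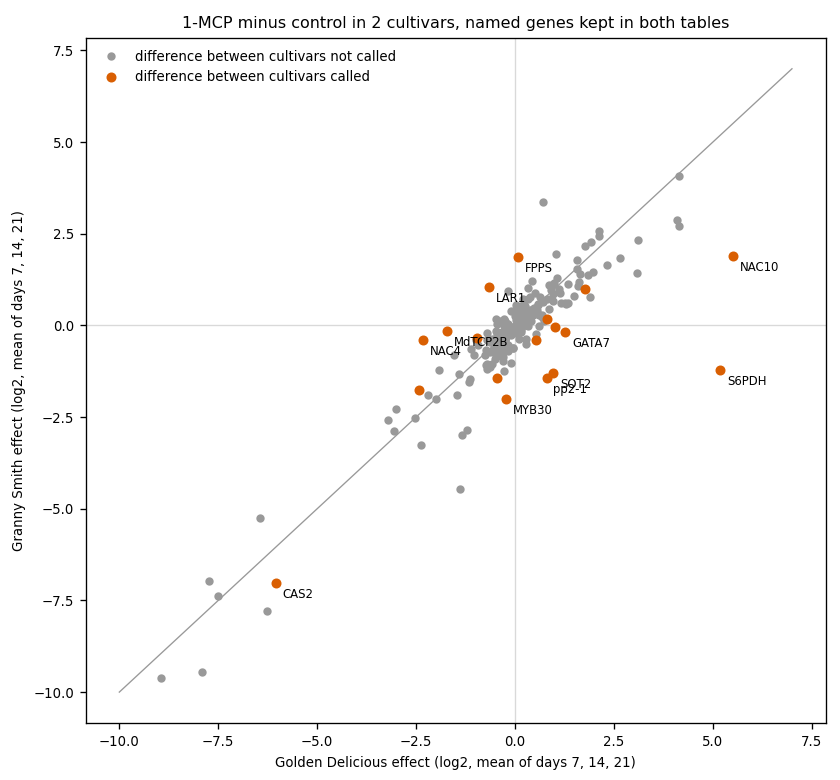
Mean difference between 1-MCP and control fruit over days 7, 14 and 21 in Granny Smith (vertical axis, log2 units) against Golden Delicious (horizontal axis, log2 units) for the 226 named genes kept in both, with the line of equal effects. Orange points are the 18 genes whose difference between the cultivars was called, and S6PDH and NAC10 lie farthest to the right of the line.

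S6PDH had the widest gap. In Golden Delicious its control level was 8.01, 4.56 and 4.50 and its treated level 11.13, 11.17 and 10.35, an effect of 5.19, while in Granny Smith the effect was -1.21. Treated levels moved little over the days in either cultivar, while control levels dropped in both. The difference of -6.40 (SE 0.919, adjusted p 0.0221) lost its call without any 1 of the days (up to 0.252). SOT2 followed the same direction. It went from 5.91, 5.03 and 4.10 in control to 6.42, 5.63 and 5.90 in treated Golden Delicious fruit and from 6.32, 6.41 and 6.55 to 4.59, 4.92 and 5.85 in Granny Smith, a difference of -2.27 (SE 0.121, adjusted p 0.0049, and 0.110 without day 14).

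Of the 11 NAC genes tested, 5 differed (NAC1, NAC2, NAC4, NAC10 and NAC23), beside 18 of 226 named genes and 4.6% of all entries. All 5 calls were lost without day 14. NAC1 lost its call in 7 of 10 settings and NAC23 in 5 of 9. NAC10 was at 4.83, 3.07 and 0.53 in control and at 8.81, 8.45 and 7.70 in treated Golden Delicious fruit, an effect of 5.51 beside 1.90 in Granny Smith (-3.61, SE 0.501, adjusted p 0.0126). NAC4 was at 5.16, 6.69 and 7.08 in control and 3.60, 4.18 and 4.18 in treated Golden Delicious fruit. Its effect was -2.32 there and -0.39 in Granny Smith (difference 1.94, SE 0.338, adjusted p 0.0163). MYB30 was nearly flat in Golden Delicious, at 7.27, 7.14 and 6.99 in control and 6.74, 6.73 and 7.28 in treated fruit (effect -0.22), against -2.0 in Granny Smith (difference -1.78, SE 0.036, adjusted p 0.00481). LAR1 had effects of opposite sign, 1.06 in Granny Smith and -0.66 in Golden Delicious (difference 1.72, SE 0.283, adjusted p 0.0129). The phloem gene pp2-1 did so too, with -1.44 and 0.80 (difference -2.24, SE 0.351, adjusted p 0.0121).

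**Figure D5:**
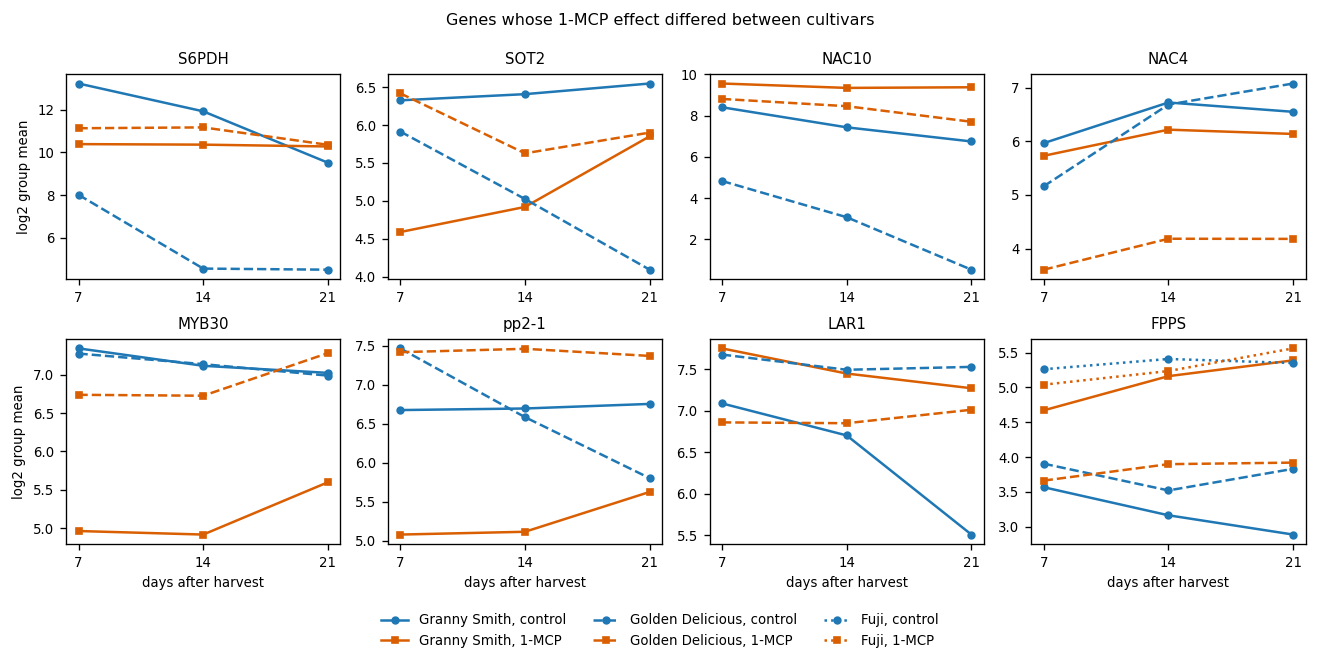
Level (vertical axis, authors' log2 group mean) at days 7, 14 and 21 after harvest (horizontal axis) of 8 genes whose 1-MCP effect differed between cultivars, in control (blue) and treated (orange) fruit of Granny Smith (solid), Golden Delicious (dashed) and, for FPPS, Fuji (dotted). Each cultivar has its own table and the exact scaling is not given, so only the gap between blue and orange lines of 1 cultivar is compared. In Golden Delicious this gap is wide for S6PDH (effect 5.19) and narrow for MYB30 (effect -0.22).

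The effect on FPPS was called different from both cultivars. Its level was 3.90, 3.52 and 3.83 in control and 3.66, 3.90 and 3.92 in treated Golden Delicious fruit, and 5.26, 5.41 and 5.35 against 5.04, 5.23 and 5.56 in Fuji. The effects were 0.07 and -0.06 there and 1.87 in Granny Smith (differences 1.79, SE 0.319, adjusted p 0.0455, and 1.93, SE 0.304, adjusted p 0.0055). The first call was lost without the filter, without day 14, without day 21 and with plain eBayes (adjusted p 0.0072 to 0.353 over the settings tried), and the second without day 14 (0.0698). With 16 added to the values the differences were 0.94 and 1.02. AFS1, the next enzyme towards farnesene, fell alike, with effects of -9.62 in Granny Smith, -8.96 in Golden Delicious and -9.13 in Fuji. Against Fuji the phloem gene pp2-3 had a difference of -1.59 (SE 0.181, adjusted p 0.00124), the 1 named call that stayed without day 14, with an effect of 0.54 in Fuji. PSY2 fell less in Granny Smith than in Fuji, with effects of -2.52 and -3.42 (difference 0.90, SE 0.189, adjusted p 0.00912). IAA12 rose more, by 1.94 against 1.16 (difference 0.78, SE 0.183, adjusted p 0.0141). No difference from either cultivar was called for ACO1, XET01, LOX7a and ETR2, where ETR2 came near the threshold against Golden Delicious (adjusted p 0.0568). PG1, ERS1 and ETR5 were tested against Golden Delicious alone and were not called.

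Of the 341 named genes 110 did not pass the filter and were not tested. The kept genes nearest to it were MdSSK1, AUX/IAA7.1 and GRF1, with third-highest column values of 4.05, 4.05 and 4.07, and those just outside were IPT1b, KS and MYBR17, with 4.0 (just under the threshold), 3.98 and 3.98. A gene that passed through the columns of 1 group alone had to differ. Among the called named genes, 9 of the higher ones had every control value under 4 at days 7 to 21 (ALF6, CYCD3, DFR, FPPS, GAD2, HD19, IAA11, RA and YTP2). Likewise 5 of the lower ones had every treated value under 4 (AFS1, LOX7a, MYB7, PG1 and XET01), so the counts of called genes above are no support for a direction. Over all kept entries, 936 of the 8185 called higher had every control value under 4. Of the 7214 called lower, 838 had every treated value under 4. Each named gene is given by its entry with the highest mean level. In 27 called genes other kept entries exist, 34 in all, each with the sign of the entry shown. They are entries of the same genes in the same groups, so this is no separate support. The library kit, per the labels, does not mark strand, so reads from overlapping antisense transcripts cannot be told apart, nor can near-identical copies.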

How the data were processed

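Fruit cortex RNA was sequenced by the submitters with a kit that does not mark strand, per the labels' protocols, and the submitters' processing notes name STAR 2.5.1a and HTSeq as the tools used on the reads. The genome build and transcript set are not given in the sources used here. The deposited values are on the log2 scale, 1 per entry and group, although the authors name the measure FPKM. Undoing the log of low values as a mean of 3 libraries gives whole numbers (relative tolerance 0.0003), with 0 entered as 0.5, so the deposited means appear to be averages of log2 values of whole numbers. Column quantiles nearly match within a table. Each cultivar has its own table and the authors' exact scaling is not given, so only differences within a table are compared across cultivars. Depth is unknown, so no counting interval was computed.

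Entries with log2 of at least 4 in 3 or more of 11 columns were kept. Differences between 1-MCP and control at days 7, 14 and 21 were fitted with limma 3.58.1 in R 4.3.3 (intercept only; eBayes with trend and robust), and the trend over weeks and the difference between cultivars likewise. Adjusted p is Benjamini-Hochberg over all kept entries, two-sided, with a threshold of 0.05. The fit was tested on simulated data. Names came from RefSeq (GDT2T_hap1) by transcript accession without version, which matched 22330 of 55627 entries (40.1%).

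A name with several entries is given by its entry with the highest mean level. Named are the 15 steepest called genes in each direction, every called list member, all ethylene genes, the 8 widest gaps to each cultivar and the 5 steepest trends each way; beyond these, genes are described by counts, or named after their values were seen. The members and lists were chosen with earlier results of these data known. Alternatives covered the filter, an added 4 or 16, centring, each day left out, plain eBayes, no pairing by day and a fold rule without a test.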

Additional observations from a re-analysis of the deposited data

Results flagged for a closer look

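The 1-MCP effect of 18 named genes differed between Granny Smith and Golden Delicious, and that of 18 differed between Granny Smith and Fuji, by limma on the day-by-day difference of effects (n = 3 days, adjusted p under 0.05 over all entries tested). Values below are the Granny Smith effect minus the effect in the other cultivar, in log2 units. A negative value means that the effect was the lower one in Granny Smith. Leaving out day 14 ended every one of these calls but that of pp2-3 against Fuji. Plain eBayes settings ended 12 of the 18 calls against Golden Delicious and 15 of the 18 against Fuji, leaving out day 21 ended 7 and 12, and having no filter ended 5 of each. The call of NAC1 was lost in 7 of 10 settings.

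Against Golden Delicious the sorbitol genes S6PDH and SOT2 had differences of -6.40 and -2.27. In the NAC family the difference was -3.61 for NAC10, -0.91 for NAC2, -1.05 for NAC23, 0.69 for NAC1 and 1.94 for NAC4. NAC23 had an effect of -0.05 in Granny Smith and 1.00 in Golden Delicious. Other transcription factor genes were MYB30 at -1.78, GATA7 at -1.46, BZIP12 at -0.98, AP2D42 at -0.65 and MdTCP2B at 1.57. GATA7 had an effect of -0.18 in Granny Smith and 1.28 in Golden Delicious, and MdTCP2B one of -0.15 and -1.72. The phloem gene pp2-1 differed by -2.24, the flavonoid gene LAR1 by 1.72 and the farnesyl diphosphate synthase gene FPPS by 1.79. CAS2 differed by -0.98, on effects of -7.01 and -6.04. The aquaporin gene PIP1 differed by -0.78, with effects of 0.99 and 1.77, and the autophagy gene ATG8g by 0.60, with effects of -0.35 and -0.95.

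Against Fuji the isoprenoid genes differed in both directions, FPPS by 1.93, the oxidosqualene cyclase gene OSC1 by 0.89, PSY2 by 0.90 and ZDS1-1 by -0.73. OSC1 had an effect of 0.20 in Granny Smith and -0.70 in Fuji. Of the auxin genes IAA12 differed by 0.78. Transcription factor genes were WRKY4 at -1.01, AP2D11 at -0.74, AP2D42 at -0.72, COL9 at -0.68, HD11 at -0.66 and MdTCP2B at 0.79. AP2D42 and MdTCP2B thus differed from both cultivars in the same direction, in comparisons that share the Granny Smith values. The kinase genes CIPK27 and CIPK22 differed by -0.98 and -0.77. The sorbitol transporter gene MdSOT4 differed by -1.05 and the spermidine synthase gene MdSPDS2a by 0.73. The phloem gene pp2-3 differed by -1.59. ALF6 differed by 1.17, on effects of 2.43 and 1.26, and omt5 by -1.82, on effects of -0.38 and 1.44.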

How the results depend on the processing

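No paired analysis was possible because the tables hold group means and their columns carry no replicate numbers. Pairing by day, which is part of the fit, is another matter, and without it 16095 entries were called. A planned fit on libraries with the replicate number as a block was not run for lack of library columns. In place of replicates, each day was left out in turn. The 15399 entries called in Granny Smith became 5951 to 17736 (5951 without day 14, 9885 without day 21, 17736 without day 7). The rule of at least 1 log2 unit at each day, which has no test, kept 3388. The other settings gave 11531 (filter of log2 at least 6) to 17005 (at least 2). The 1419 differences from Golden Delicious became 1 to 5899 with a day left out, the 5899 without day 7. The 1 was without day 14, where 2946 had an unadjusted p under 0.05 by limma. They numbered 886 with the filter at log2 6 and 452 with eBayes without trend and robust. The 1205 differences from Fuji became 257 (without day 14) to 2349 (without day 7) with a day left out and 492 with plain eBayes. The 385 trends numbered 766 with the filter at log2 2 but 0 without a filter and 0 with plain eBayes by limma, where 4243 and 4107 had an unadjusted p under 0.05. With 16 added to the values 260 trends went up and 160 down, against 280 and 105. No named gene changed the sign of a called difference under the settings run. Besides losses without a day, called named genes lost their call without a filter (28), with plain eBayes (16), without pairing by day (8), with centred differences (3), with the filter at log2 6 (2) or at log2 2 (1). The causes were not tested. Without a day, 2 days remain as units, which leaves 1 residual degree of freedom. Differences of genes with low values shrink when a value is added, as given beside some of the genes concerned.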

Other observations

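Several called genes stood outside the lists and are named here after their values were seen. CAS1 (NM_001294020), whose symbol resembles that of CAS2, was at 13.57, 14.04 and 14.12 in control and at 12.12, 11.96 and 11.96 in treated Granny Smith fruit, with 12.98 at harvest. The groups lay on either side of harvest, and CAS1 fell by 1.90 (SE 0.224, adjusted p 0.000598), against 7.01 for CAS2 on the same scale. RIN4-2, named after an immune regulator of Arabidopsis, stood at 5.20, 4.45 and 4.30 in control and at 5.93, 5.98 and 5.91 in treated fruit, and rose by 1.29 (SE 0.279, adjusted p 0.00428). SnRK2.8, of a kinase family known from osmotic stress in Arabidopsis, rose by 0.94 (SE 0.0892, adjusted p 0.00335), with flat levels in both groups. HMT fell by 1.25 (SE 0.139, adjusted p 0.00121). The calls of these 4 genes held under each setting that was run on them.

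CAMTA1, named after calmodulin-binding transcription activators, dropped in control fruit, at 10.17, 9.24 and 8.59, and less in treated fruit, at 10.71, 10.45 and 10.12, from 11.54 at harvest. It rose by 1.09 against control (SE 0.294, adjusted p 0.0087), a call lost without day 14 and without pairing by day (adjusted p up to 0.0708). The TLP genes did not move together. TLP5 and TLP6 rose by 0.87 and 0.89, TLP1 fell by 0.46, a call lost without day 14 or day 21 (adjusted p up to 0.0933), and TLP2, TLP3 and TLP4 were not called.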
